A study of Mus musculus with 19 samples.

Results

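H19, Igf2 and 8 further genes of the insulin-like growth factor (IGF) axis were described across liver tumours of 1 mouse model. The 10 genes were H19, Igf2, Igf1, Igf1r, Igf2r, Igfbp1, Igfbp2, Igfbp4, Igfals and Igf2bp3. They were picked by name, selected on their measured levels in the same 10 tumours, and all 10 were found among the 39179 genes of the count table. Their levels and spread are therefore given as a description, and only their relation to the tags in the column names was tested.

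RNA abundance was measured by polyA RNA sequencing of whole end-stage liver tumours from male mice on a mixed background. Of the 19 samples of the series (13 tumours, 3 control livers and 3 high AAV control livers), 10 tumours, numbered 04 to 13, could be matched to a column of the table. All tumours shared 1 genotype: a heterozygous Ctnnb1tm1Mmt allele, which stabilises β-catenin after recombination, and a homozygous Gt(ROSA)26Sortm1(MYC)Djmy allele, which expresses human MYC. Every mouse received AAV8.TBG.PI.Cre.rBG at 640000000 genome copies (GC), in which the hepatocyte-active TBG promoter drives Cre, so the engineered change was limited to cells that used this promoter. Neither the age of the mice nor the mouse of origin of each tumour is given in the labels. Column names carry 1 of 5 tags, which fall into 3 families (tumours 04 to 06, 07 and 08, and 09 to 13). What a tag stands for is not explained in the labels, and tumours with the same tag may come from 1 animal, so p-values measure only the spread between these samples. Non-tumour liver was not analysed here.

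The libraries held between 11687034 and 36964427 counts over genes, and 3 counts corresponded to between 0.0812 and 0.257 counts per 1000000 counts (CPM). The hepatocyte marker genes were abundant in every tumour, with a sum of 28199 to 42876 CPM over 8 genes and albumin (Alb) at 13017 to 22990 CPM. Cps1, a periportal urea cycle enzyme, was low in some tumours, at 4.53 to 218 CPM. Markers of stellate cells and fibroblasts summed to 247 to 1795 CPM, those of endothelium to 43.5 to 359 CPM and those of macrophages to 90.4 to 254 CPM. The 8 lymphocyte markers together reached at most 6.496 CPM. Rpph1, a non-polyadenylated RNA that should be scarce in such libraries, stood at 30.1 to 51.8 CPM in tumours 05, 06 and 07 and at 0.757 to 4.28 CPM in the other 7. In whole tissue, a lower level cannot be told apart from a smaller share of the cells that make the RNA.

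IGF1 and IGF2 are secreted growth factors that signal through the receptor tyrosine kinase IGF1R, while IGF2R binds IGF2 and carries it to lysosomes for destruction. Binding proteins (IGFBPs) hold the ligands in blood and tissue, and the acid labile subunit (IGFALS) extends the life of the circulating complex. H19 is a long noncoding RNA that neighbours Igf2 in an imprinted domain: H19 is read from the maternal chromosome, Igf2 from the paternal one, and a shared control region decides which of them uses the enhancers near H19. Both are abundant in fetal liver and are switched off after birth, when growth hormone makes the liver the main source of circulating IGF1.

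H19 and Igf2 each contain a microRNA within their transcription unit. The mature sequences are shown because these short RNAs are products of the host transcripts, with the seed (bases 2 to 8) in capitals. Each of the 4 seeds was found in no other of the 1738 mature mouse microRNAs listed by RefSeq on GRCm38.p6. The hairpin rows of Mir675 (in H19) and Mir483 (in Igf2) held 0 counts in all 10 tumours, in libraries of polyA RNA that are not made to capture microRNAs.
mmu-miR-675-5p: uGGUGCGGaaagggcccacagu
mmu-miR-675-3p: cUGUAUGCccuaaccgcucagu
mmu-miR-483-5p: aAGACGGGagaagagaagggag
mmu-miR-483-3p: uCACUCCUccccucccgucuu

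The promoters of the members were searched for 3 short motifs that belong to factors engineered in these mice or known to act on the axis: ATCAAAG (the TCF site of β-catenin signalling), CACGTG (the E-box read by MYC) and TTCNNNGAA (the STAT5 site of growth hormone signalling), each on both strands. RefSeq start sites on GRCm38.p6 gave 15 windows for 9 members, each running from 250 bases before to 50 after a start, and H19 had no entry. No window held ATCAAAG, which occurred in 3.73% of all 32851 windows. CACGTG occurred in 3 of the 15 windows and in 7.15% of all windows. TTCNNNGAA occurred in 2 of the 15, both of Igfals, and in 8.30% of all. Igf2 had 4 start sites and none of their windows held any of the 3 motifs. The windows with an E-box and the Igfals window nearest its STAT5 motif are printed 5′ to 3′ on the strand of the gene, with the motif in capitals. They are shown so that the level of each gene can be read beside its sequence, and a match is a run of letters, not a shown binding site.
Igf2bp3, chr6:49214905-49215204, minus strand, E-boxes starting 23 bases upstream of the start and at base 6 of the transcript: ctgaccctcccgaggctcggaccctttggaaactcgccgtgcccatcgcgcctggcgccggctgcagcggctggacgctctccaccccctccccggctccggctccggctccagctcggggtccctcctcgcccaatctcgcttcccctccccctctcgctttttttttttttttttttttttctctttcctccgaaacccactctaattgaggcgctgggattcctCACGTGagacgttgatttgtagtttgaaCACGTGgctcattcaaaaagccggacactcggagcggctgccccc
Igf2r, chr17:12769657-12769956, minus strand, E-boxes starting 48 and 7 bases upstream: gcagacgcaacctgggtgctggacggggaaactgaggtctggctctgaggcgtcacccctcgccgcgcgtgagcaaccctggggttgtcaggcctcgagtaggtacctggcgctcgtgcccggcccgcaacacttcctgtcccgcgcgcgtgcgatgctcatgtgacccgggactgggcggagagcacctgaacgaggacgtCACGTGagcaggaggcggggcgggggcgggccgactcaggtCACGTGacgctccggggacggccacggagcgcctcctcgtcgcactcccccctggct
Igfbp2, chr1:72824230-72824529, plus strand, E-box starting 142 bases upstream: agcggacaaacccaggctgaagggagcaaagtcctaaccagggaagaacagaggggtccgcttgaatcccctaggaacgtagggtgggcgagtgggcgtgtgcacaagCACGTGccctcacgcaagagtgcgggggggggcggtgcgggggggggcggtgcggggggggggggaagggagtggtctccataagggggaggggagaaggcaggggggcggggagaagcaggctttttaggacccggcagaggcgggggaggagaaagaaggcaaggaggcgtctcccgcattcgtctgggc
Igfals, chr17:24877981-24878280, plus strand, STAT5 motif starting 58 bases upstream: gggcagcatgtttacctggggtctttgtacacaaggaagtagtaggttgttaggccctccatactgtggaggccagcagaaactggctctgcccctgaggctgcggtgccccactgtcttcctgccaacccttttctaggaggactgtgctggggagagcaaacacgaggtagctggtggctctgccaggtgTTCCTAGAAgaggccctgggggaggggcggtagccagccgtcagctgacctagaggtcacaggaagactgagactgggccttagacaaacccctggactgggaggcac

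The imprinted pair showed the widest range of the 10 genes. H19 (ENSMUSG00000000031, chromosome 7, 142575530 to 142578146) was at 14.8 CPM in tumour 04, 1.66 in 05, 79.2 in 06, 9.97 in 07, 132 in 08, 7090 in 09, 5.11 in 10, 99.97 in 11, 90.3 in 12 and 2849 in 13. Tumours 09 and 13 stood above all others, since the second highest value was 21.6-fold over the third. Tumours 06, 08, 11 and 12 lay together between 79.2 and 132 CPM, and tumours 04, 05, 07 and 10 lay at or below 14.8 CPM. The highest and lowest tumours differed 4274-fold. Each of the 9 steps in the order of levels exceeded the 95% exact Poisson intervals of the counts, which cover counting error only.

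Igf2 (ENSMUSG00000048583, chromosome 7, 142650768 to 142666816) was at 0.421 CPM in tumour 04, 0.0638 in 05, 2.92 in 06, 2.12 in 07, 5.90 in 08, 1514 in 09, 0.669 in 10, 1.77 in 11, 3.95 in 12 and 4.48 in 13. Tumour 09 alone was high, 257-fold above tumour 08, the next in order. In tumour 05 a single read was counted, with an interval of 0.00162 to 0.356 CPM, and it lay below the limit of 3 counts. Of the 9 steps in the order, 7 lay within the counting intervals, so that most of the lower tumours could not be ranked against their neighbours. Tumour 13, second for H19, was at the level of tumours 08 and 12 for Igf2.

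**Figure D1:**
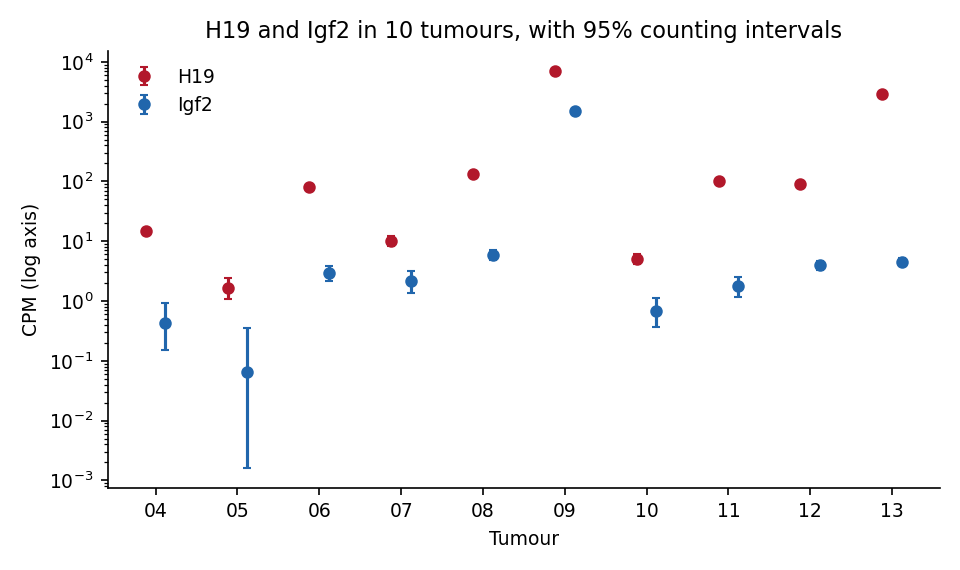
H19 (red) and Igf2 (blue) in each of 10 tumours, as CPM on a log axis with 95% exact Poisson intervals of the counts. Both genes were highest in tumour 09 (7090 and 1514 CPM), whereas tumour 13 was high for H19 (2849 CPM) and stayed at 4.48 CPM for Igf2.

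The balance of the pair therefore differed between the 2 tumours with the most H19. Tumour 09 held 4.68 H19 reads for each Igf2 read (95% exact binomial interval 4.62 to 4.75), and tumour 13 held 636 (549 to 743). The other 8 tumours held between 4.70, in tumour 07 (2.97 to 7.72), and 56.6, in tumour 11 (39.0 to 85.5). The ratio of tumour 09 lay inside the interval of tumour 07, although tumour 07 had 108 H19 reads and tumour 09 had 112252. Per kilobase of exon, H19 exceeded Igf2 by 10.1 in tumour 09 and by 1377 in tumour 13. Over the 10 tumours the log2 CPM values of H19 and Igf2 had a Spearman rho of 0.87 (Pearson r = 0.84), a description of 10 points that share their libraries.

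Tumours with the same tag did not share an H19 level. H19 was 1386-fold higher in tumour 09 than in tumour 10 and 47.7-fold higher in tumour 06 than in tumour 05, and each of these pairs carried 1 tag. The pair 07 and 08 differed 13.2-fold, and tumours 11 to 13 spanned 31.5-fold. Igf2 differed 2263-fold between tumours 09 and 10 but 2.53-fold among tumours 11 to 13.

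Genes around the pair were counted next. Of 20 protein-coding, long noncoding and microRNA genes within 250 kb on either side (RefSeq, GRCm38.p6), 17 were in the table, 12 had at least 1 count and 3 passed the filter on low counts. Beside H19, those were Ctsd, a lysosomal protease, and Lsp1, a protein of leukocytes. Ctsd ranged from 602 to 917 CPM and was highest in tumour 09, 0.28 above the mean of the others on the log2 scale. Lsp1 ranged from 2.48 to 13.8 CPM, again highest in tumour 09, and was lowest in tumour 13. Igf2os, the antisense transcript of Igf2, had 43 counts in tumour 09 and at most 2 in any other. Nctc1, a noncoding gene downstream of H19, had 4 counts in tumour 09 and 0 in the others. Mrpl23, a mitochondrial ribosomal protein gene, did not follow the pair, with 0.632 CPM in tumour 09 and 0.494 to 1.43 in the others. Ins2, which lies just beyond Igf2, and Th had 0 counts throughout. Igf2 and Igf2os overlap, and whether counting used the strand is not given in the sources used here, so their reads may be mixed.

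Tissue markers were set beside the pair. The 8 stellate and fibroblast markers summed to 1795 CPM in tumour 09 and to 247 to 1601 CPM in the other 9, and 5 of the 8 were highest in tumour 09. Sums of the endothelial (237 CPM), macrophage (222 CPM), blood (1767 CPM) and cholangiocyte markers (72.1 CPM) in tumour 09 lay within those of the other 9, which ran from 43.5 to 359, 90.4 to 254, 101 to 6178 and 24.98 to 102 CPM. For blood, tumour 07 alone was higher, and 4 of the 6 cholangiocyte markers were highest in tumour 09. Hepatocyte markers summed to 32773 CPM in tumour 09, within the 28199 to 42876 CPM of the others. Of these 8, 2 were lowest in tumour 09: Apoa1 at 3336 CPM and Hnf4a at 612 CPM. Lymphocyte markers summed to 4.93 CPM there, within the 0.765 to 6.496 CPM of the others. Of the 10 β-catenin targets, 4 were lowest in tumour 09, among them Glul, which fills most of their sum, at 5388 CPM. Without Glul the other 9 targets summed to 1050 CPM, within the 803 to 2351 CPM of the other tumours. Proliferation markers summed to 235 CPM against a median of 226. In tumour 13, with the second highest H19, stellate and fibroblast markers summed to 311 CPM and endothelial markers to 47.2 CPM, both below the medians of 514 and 128 CPM. The part of these cell types in the Igf2 level of tumour 09 was not tested. How many of all genes were highest or lowest in tumour 09 was not counted.

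Of the 16 oncofetal and progenitor genes measured, Afp and Gpc3 shared their top pair of tumours, 09 and 13, with H19. Afp, the fetal serum protein, was at 123 CPM in tumour 13 and 53.5 in tumour 09 and at 2.04 to 19.7 in the others. Gpc3, a fetal cell surface proteoglycan, was at 63.1 CPM in tumour 09 and 59.0 in tumour 13, against 0.766 to 18.2 elsewhere. Of the 14 oncofetal and progenitor genes with counts, 6 were highest in tumour 09 (Gpc3, Sox4, Spp1, Epcam, Prom1 and Tspan8) and 1, Afp, in tumour 13. Tumour 09 was also the highest for 8 of 20 other IGF system genes, but for 0 of 8 hepatocyte and 0 of 10 proliferation markers. The share of all genes that were highest in tumour 09 was not counted, so nothing is read from the 6. Sox4, a transcription factor, was at 18.1 CPM in tumour 09 against 11.1 in the next, and 7.70 in tumour 13. Spp1, a secreted matrix protein, was at 80.2 CPM in tumour 09 against 46.5 in the next, and 3.84 in tumour 13. Other genes of the list were low in tumour 13. Sox9 (0.435 CPM), Epcam (0.205 CPM) and Prom1 (0.230 CPM) had their lowest values there. Krt19 was at 9.00 CPM, Cd24a at 1.56 CPM and Tspan8 at 0.179 CPM in tumour 13, below their medians of 28.8, 3.62 and 0.784 CPM. Hmga2 was highest in tumour 11 at 4.48 CPM, and Lin28a and Lin28b had 0 counts in every tumour. Of 16 oncofetal and progenitor genes measured, 8 passed the filter and 0 were called between tags, against 0.425% of all genes.

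Likeness to H19 across the 10 tumours was highest for Exo1, an exonuclease of DNA repair (Spearman rho of 0.94), followed at 0.92 by Rnaseh2b, a subunit of an RNase of DNA and RNA hybrids, Gria3, a glutamate receptor subunit, and the processed pseudogenes Gm5844 and Gm12346, whose reads may come from other copies. These genes moved over a far smaller range than H19. Exo1 ranged from 0.956 to 5.04 CPM, and Gria3 from 0.893 in tumour 05 to 20.1 in tumour 09. Genes alike to Igf2 included Dck, Mark3 and Clspn (rho of 0.94 each) and Dtymk (0.93). Dck and Dtymk are nucleotide kinases, and Clspn works at the replication fork. None of these 4 genes shared the jump of Igf2 in tumour 09, as Dck was at 10.3 CPM there against 8.79 in the next highest tumour. The measure uses ranks, 7 of the 9 steps in the order of Igf2 lay within counting error, and the points share library and depth. The genes were picked as the highest in rho among the 12462 that passed the filter, over 10 points. How high rho rises by chance among so many genes was not tested, so no link is read from it.

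Of the ligands, Igf1 (ENSMUSG00000020053, chromosome 10, 87858265 to 87937047) was the main one in 9 of 10 tumours. It was at 122 CPM in tumour 04, 14.04 in 05, 78.7 in 06, 28.6 in 07, 68.1 in 08, 105 in 09, 12.9 in 10, 15.4 in 11, 97.9 in 12 and 76.6 in 13. Tumours 05, 07, 10 and 11 were at or below 28.6 CPM and the other 6 at or above 68.1 CPM. Per kilobase of exon, Igf1 exceeded Igf2 by 5.25-fold, in tumour 11, to 175-fold, in tumour 04, a value that rests on 6 Igf2 reads. For tumour 05, with 1 Igf2 read, no ratio is given. In tumour 09 the order was the opposite, with 246 CPM per kb of Igf2 against 10.3 of Igf1, a ratio of 24.0.

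Igf1 did not follow the tags. Pairs with 1 tag differed 5.60-fold (tumours 05 and 06), 2.38-fold (07 and 08) and 8.16-fold (09 and 10). Genes alike to Igf1 included Stom, a membrane scaffold protein (rho of 0.94), Pigf, a glycolipid anchor enzyme, and ENSMUSG00000074140, which matched no symbol (0.92 each), and Tgfbr1, a TGFβ receptor (0.89). Stom ranged from 48.8 to 89.1 CPM and Tgfbr1 from 11.7 to 21.3 CPM, against the 9.53-fold range of Igf1. These too were picked as the highest in rho among all genes that passed the filter, so no link is read from it.

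The receptors differed from each other in level. Igf1r (ENSMUSG00000005533, chromosome 7, 67952257 to 68233668), the signalling receptor, was scarce, at 0.281 to 3.03 CPM (median 1.18) with 9 to 50 reads per library. It was highest in tumour 09 and lowest in tumour 13, and each of its 9 steps in order lay within the counting intervals. Igf2r (ENSMUSG00000023830, chromosome 17, 12682406 to 12769706), the clearance receptor, lay between 115 and 362 CPM (median 206), with tumour 09 again highest and tumour 08 lowest. Per kilobase of exon this was 23.7 ± 8.67 CPM for Igf2r against 0.0721 ± 0.0495 for Igf1r (SD, n = 10). Insr, the insulin receptor, which also binds IGF2, was at 72.4 to 118 CPM. Airn, the noncoding RNA that overlaps Igf2r on the opposite strand, was at 3.04 to 11.2 CPM and was lowest in tumour 06, and reads of this pair may be mixed.

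**Figure D2:**
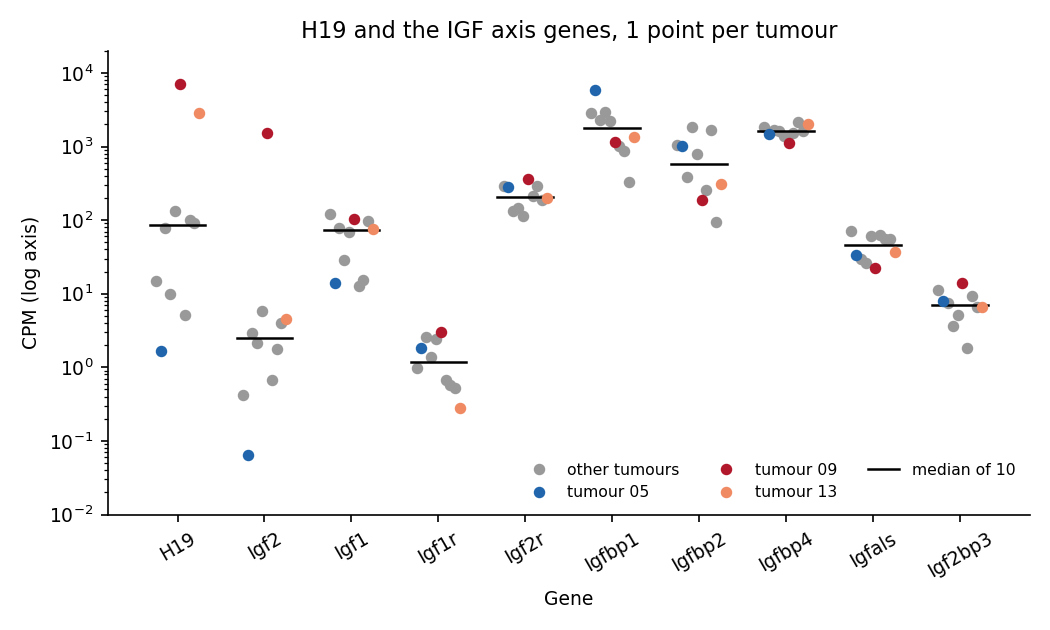
Level of each of the 10 genes in each tumour, as CPM on a log axis, with 1 point per tumour, the median as a black line and tumours 05, 09 and 13 in colour. Tumour 09 was the highest for H19, Igf2, Igf1r, Igf2r and Igf2bp3 and the lowest for Igfbp4 and Igfals, and Igfbp4 spanned the smallest range (1106 to 2133 CPM).

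Igfbp1 (ENSMUSG00000020429, chromosome 11, 7197787 to 7202546), which hepatocytes secrete when insulin is low, ranged from 327 CPM in tumour 12 to 5937 in tumour 05 (median 1768). Igfbp2 (ENSMUSG00000039323, chromosome 1, 72824480 to 72852474), a binding protein of fetal and fasted liver, ranged from 92.9 CPM in tumour 12 to 1839 in tumour 07 (median 588). Igfbp4 (ENSMUSG00000017493, chromosome 11, 99040005 to 99052655), which holds IGFs away from their receptor until it is cut, ranged from 1106 CPM in tumour 09 to 2133 in tumour 11 (median 1615). Igfbp1 and Igfbp2 were thus lowest in the same tumour, while Igfbp4 varied by 1.93-fold in all. Igfbp2 was at 1692 CPM in tumour 11 and 92.9 in tumour 12, which carried the same tag.

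Compared per kilobase of exon, Igfbp1 was the most abundant of the 6 IGF binding proteins in 8 of 10 tumours. Its share of their sum was 56.8% ± 15.9 (SD, n = 10) and ran from 28.1% in tumour 11 to 79.2% in tumour 05. Igfbp2 led in tumour 11 with 44.9%, and Igfbp4 led in tumour 12 with 60.5%. Igfbp3, Igfbp5 and Igfbp6 together were minor, as Igfbp3 reached at most 3.75% (tumour 09). The sum itself ranged from 607 CPM per kb in tumour 12 to 4408 in tumour 05.

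**Figure D3:**
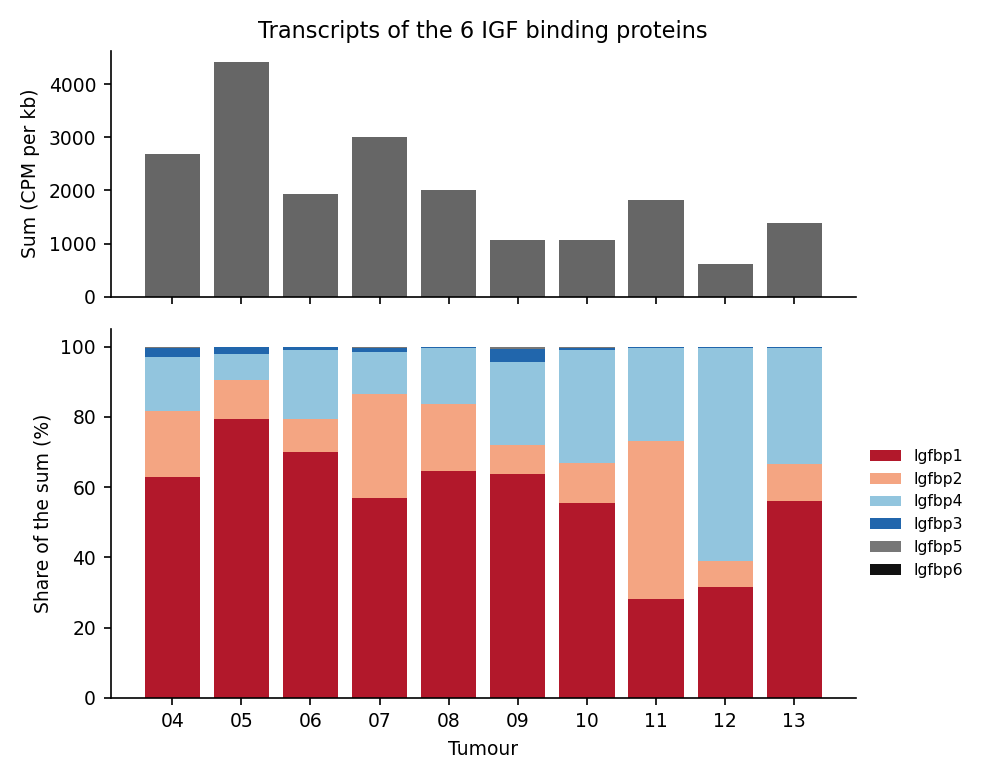
Transcripts of the 6 IGF binding proteins in each tumour. The upper bars give their sum in CPM per kb of exon and the lower bars the share of each in percent, with Igfbp1 the largest share in 8 tumours, Igfbp2 in tumour 11 (44.9%) and Igfbp4 in tumour 12 (60.5%).

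Igfals (ENSMUSG00000046070, chromosome 17, 24877844 to 24882011), the partner of the circulating complex and a growth hormone target, ranged from 22.2 CPM in tumour 09 to 70.7 in tumour 04 (median 46.0), and 7 of the 9 steps in its order lay within the counting intervals. Its order was unlike that of Igf1 (Spearman rho of -0.10 over 10 tumours). Igf2bp3 (ENSMUSG00000029814, chromosome 6, 49085218 to 49215469), a fetal RNA-binding protein that acts on the Igf2 message among others, ranged from 1.82 CPM in tumour 10 to 13.8 in tumour 09 (median 7.11), with 38 to 260 reads. Of the 9 steps in the order of Igf2bp3, 8 lay within the counting intervals. Of its relatives, Igf2bp1 was at no more than 0.253 CPM and Igf2bp2 at 0.329 to 2.15 CPM.

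The spread of the members between tumours was set beside that of all genes that passed the filter. Of 12462 such genes, 5.17% had a standard deviation (SD) of log2 CPM above 1, and of the 8 members that passed, 4 did: H19 (3.79), Igfbp2 (1.44), Igf1 (1.30) and Igfbp1 (1.17). The median SD was 1.00 for the 8 members and 0.33 for all genes. The members were chosen with these values known, so nothing is read from the difference. Igfbp4, at 0.27, varied less than the median gene. Igf2 (3.50) and Igf1r (1.04) did not pass the filter, which asks for a minimum level in every tumour. Without tumour 09 the SD of Igf2 was 1.71.

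**Figure D4:**
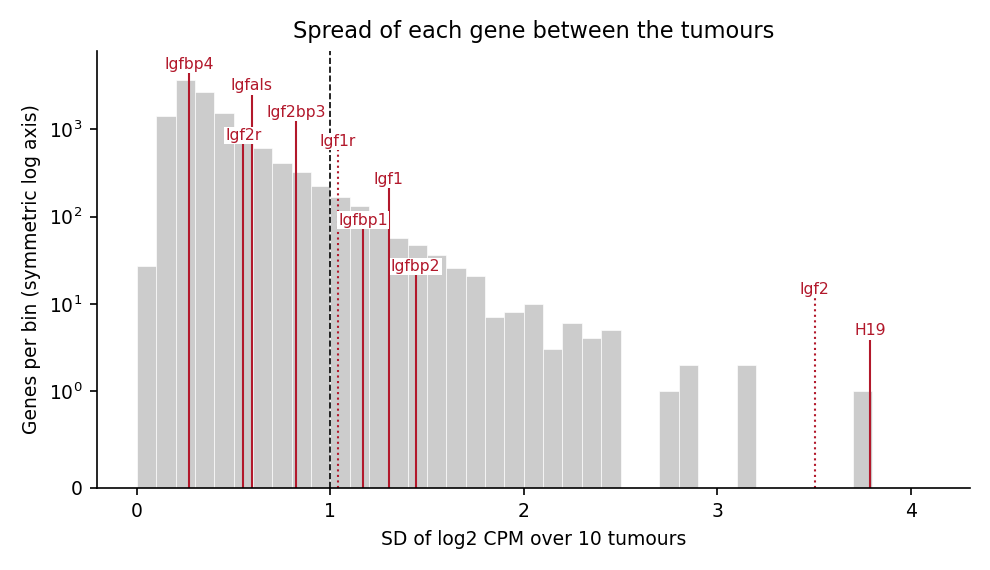
Number of genes at each SD of log2 CPM over 10 tumours (grey bars, symmetric log axis, 12462 genes), with the members as red lines whose height has no meaning. Dotted lines mark Igf2 and Igf1r, which did not pass the filter, and the dashed line marks an SD of 1, beyond which 5.17% of the genes lie.

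Whether levels followed the tags was tested in edgeR over all 12462 genes with the quasi-likelihood F test and Benjamini-Hochberg adjustment. Between tags, 0 of the 8 members were called at an adjusted p of 0.05, against 0.425% of all genes (53 genes). Between tag families, 0 of 8 were called, against 0.00802% of all genes, which was 1 gene, Cyp2c39, a hepatic cytochrome P450 named here after its values were seen. At an unadjusted p under 0.05 it was 1 of the 8 members between tags and 2 between families, against 1863 and 1740 of all genes. Igfbp1 came closest, with an adjusted p of 0.224 between tags and 0.181 between families in edgeR. With the Rpph1 level as a covariate these were 0.603 and 0.695. With 1 tumour left out they ran from 0.158 (without tumour 04) to 0.575 (without 05) between tags. Between families they ran from 0.0820 (without 09) to 0.609 (without 05). Tumours 09 to 13 held 937 ± 382 CPM of Igfbp1 (SD, n = 5) and did not overlap with tumours 04 to 06 at 3703 ± 1955 (n = 3) or 07 and 08 at 2556 ± 493 (n = 2). Of all 12462 genes, 0.778% were lower in each of tumours 09 to 13 than in any of tumours 04 to 08 and 1.26% were higher, 2.04% in all, and of the 8 members 1, Igfbp1, was lower and 0 were higher. DESeq2's likelihood ratio test on the same counts called Igfbp1, with an adjusted p of 0.000538 between tags and 0.000704 between families, but it called 10.1% and 4.14% of all genes with an adjusted p. It gave H19 no p between tags and Igfbp2 none between families. H19 had an edgeR adjusted p of 0.472 between tags and 0.334 between families.

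Further genes of the IGF system were measured as a list of 20. Of these, 12 passed the filter and 1 was called between tags, against 0.425% of all genes. That gene was Irs1, the adaptor that links the IGF1 and insulin receptors to PI3 kinase. Irs1 was at 13.7 CPM in tumour 04, 6.89 and 7.84 in 05 and 06, 20.3 and 22.6 in 07 and 08, 22.2 and 25.6 in 09 and 10, and 48.9, 38.1 and 46.8 in 11 to 13. Tumours with 1 tag lay within 1.28-fold of each other, and tumours 11 to 13 were above all the rest (edgeR adjusted p = 0.0184). Irs2, the other main adaptor of liver, had its highest value in tumour 05 at 190 CPM and was not called (edgeR adjusted p = 0.179). With the Rpph1 level as a covariate, the adjusted p of Irs1 was 0.120, and it lost its call without tumour 05, 06, 11 or 13 in turn (0.106, 0.0509, 0.0803 and 0.0677).

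Igfbp3, the main carrier of IGF in blood, which liver makes largely outside hepatocytes, had an SD of 2.00 and was at 263 CPM in tumour 04, 308 in 05, 128 in 07 and 143 in 09, against 68.5 in 06 and 8.26 to 28.3 in the remaining tumours. The 8 endothelial markers summed to 163, 185, 359 and 237 CPM in these 4 tumours, to 158 CPM in tumour 06 and to 43.5 to 98.6 CPM in the others, but the 4 tumours were the top 4 for 3 of the 8 markers and tumour 05 was below the median for 3. The 8 stellate and fibroblast markers summed to 902, 878, 1601 and 1795 CPM in these 4 tumours and to 247 to 590 CPM in the others, and the 4 were the top 4 for 4 of the 8 markers. Tumour 05 was below the median for 4 of these 8 and the lowest of all for Dcn (15.1 CPM), Lrat (2.36 CPM) and Reln (4.53 CPM). Stc1, an inhibitor of the proteases that free IGF from its binding proteins, was at 21.5, 28.1, 6.18 and 24.4 CPM in these tumours and at no more than 4.37 elsewhere. The part of endothelial and stellate cells in these levels was not tested. Grb10, an imprinted adaptor that dampens receptor signalling, was highest in tumour 09 at 34.2 CPM, against 1.94 to 16.9 in the others.

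The growth hormone pathway, which drives Igf1 and Igfals in liver, was measured in 12 genes. Of these, 10 passed the filter and 1, Cish, was called between tags, against 0.425% of all genes. Cish, a STAT5 target that restrains cytokine receptors, was at 61.6 and 39.2 CPM in tumours 05 and 06, which share a tag, and at 4.48 to 15.2 CPM in the other 8 (edgeR adjusted p = 0.0290). Socs2, a related inhibitor, was at 29.8 and 41.8 CPM in these tumours and at 7.41 to 23.1 in the others, but was not called (edgeR adjusted p = 0.117). Igf1 itself differed between the pair, at 14.04 and 78.7 CPM. Ghr, the growth hormone receptor, ranged from 101 CPM in tumour 06 to 322 in tumour 12, and Stat5b from 70.0 in tumour 12 to 161 in tumour 05. Tumours 05 and 06 were also among the 3 with high Rpph1. With Rpph1 as a covariate the adjusted p of Cish was 0.224, and it lost its call without tumour 05, 06, 07, 11, 12 or 13 in turn (0.0518 to 0.224).

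**Figure D5:**
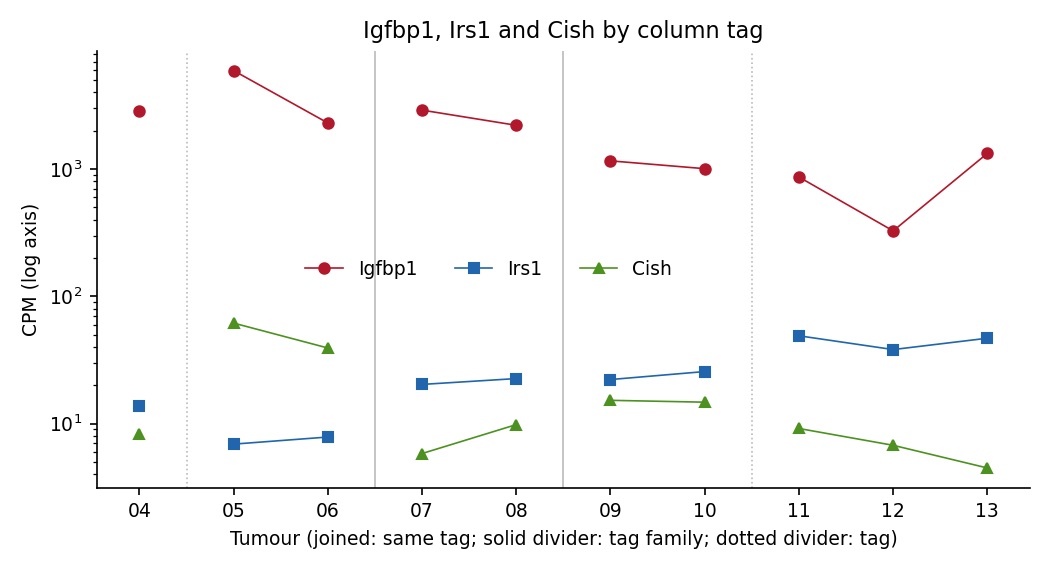
Igfbp1 (circles), Irs1 (squares) and Cish (triangles) in each tumour, as CPM on a log axis, with tumours of 1 tag joined by a line. Irs1 was highest in tumours 11 to 13 (38.1 to 48.9 CPM), Cish in tumours 05 and 06 (61.6 and 39.2 CPM), and Igfbp1 was at 327 to 1328 CPM in tumours 09 to 13.

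Of 16 other imprinted genes measured, 6 passed the filter and 0 were called between tags, against 0.425% of all genes. Tumour 09 was the highest for 4 of the 16 (Mest, Peg3, Ndn and Dcn, the last also a fibroblast marker) and tumour 13 for 3 (Dlk1, Peg10 and Nnat). The share of all genes highest in either tumour was not counted. Dlk1 had tumours 13 and 09 as its top pair, on 7 and 2 reads. Meg3, the maternal noncoding RNA of the Dlk1 domain, was at 57.9 CPM in tumour 11 and 26.6 in tumour 12 and at 0.0638 to 6.07 in the others, with 1.39 in tumour 09 and 3.53 in tumour 13. Mest, a paternally expressed gene, was highest in tumour 09 at 11.1 CPM and at 1.28 in tumour 13. Cdkn1c, a maternally expressed cell cycle inhibitor farther along chromosome 7, was at 8.02 CPM in tumour 09, 8.75 in tumour 10 and 1.64 in tumour 13. The median SD of the 6 genes was 0.78, against 0.33 for all genes, and 1 of the 6, Mest, had an SD above 1 (1.13). The list was chosen with earlier results known, so nothing is read from the difference.

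A list of 8 partners and targets of H19 and Igf2 held binding proteins, a microRNA processing factor and Mir675. Of these 8, 6 passed the filter and 0 were called between tags, against 0.425% of all genes, and the median SD was 0.22. Ctcf, the insulator protein of the H19 and Igf2 control region, was at 29.95 to 35.3 CPM. Hnrnpu was at 247 to 356 CPM and Elavl1 at 45.8 to 69.3 CPM. Mbd1, a methyl-CpG binding protein that H19 is known to recruit, was at 162 CPM in tumour 09 and 28.5 to 70.1 in the others, with tumour 13 the lowest.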

How the data were processed

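PolyA RNA of whole snap-frozen tumours was sequenced. The authors deposited raw read counts per gene, aligned to GRCm38 with TopHat2 and counted with HTSeq per the submitters' processing notes, while the study's methods name other tools. The study's methods name a stranded mRNA kit for its tumour heterogeneity libraries, but the strand setting of the counting was not given in the sources used here. Reads that HTSeq assigned to no gene formed 51.7% to 66.0% of each column. Symbols came from GENCODE M39 (34199 of 39179 identifiers) and positions from RefSeq on GRCm38.p6. Columns were matched to tumours by number, which assumes that title and library numbers are the same, and 9 other columns were not used.

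Counts were scaled by TMM in edgeR 4.0.16 (R 4.3.3), and log2 CPM used a prior count of 2. filterByExpr kept 12462 genes. Tags and tag families were tested by the quasi-likelihood F test with Benjamini-Hochberg adjustment. Alternatives were DESeq2 1.42.0, no filter, other prior counts or scaling, an Rpph1 covariate and leaving out each tumour. The tests were also run on simulated data, whose spread was set and not estimated from these tumours, so nothing about these results is read from them. Exon lengths (GENCODE M39) gave CPM per kb. Python 3.11.15, numpy 2.4.6, scipy 1.17.1, pandas 2.3.3 and matplotlib 3.10.9 were used.

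The members and gene lists were chosen with earlier results of these data known. Named genes were the members, genes of fixed lists, genes within 250 kb of H19 and Igf2, and the 5 genes with the highest Spearman rho for H19, Igf2 and Igf1. Some of the latter are not reported here.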

Additional observations from a re-analysis of the deposited data

Results flagged for a closer look

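Among 38 genes (the 10 members and the genes of 3 related lists that passed the filter), 2 had 1 tumour far from the other 9, judged by the gap to the nearest tumour as a share of the range of log2 CPM. Chance alone flags about 1 in 20 genes, which is 1.9 of 38. Igf2 in tumour 09 had a gap of 0.606 of its range, which restates values that were known when the gene was chosen. Mbd1 in tumour 09 had a gap of 0.483. H19, with high values in both tumour 09 and tumour 13, was not among them. Its gap of 0.131 was at the low end, in tumour 05.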

How the results depend on the processing

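The counts of genes called moved widely with the settings, and the cause was not tested. Between tags they were 53 as reported, 1207 with DESeq2's likelihood ratio test, 1188 without the filter, 9 with Rpph1 as a covariate (7 of them shared with the 53), and 0 (without tumour 11; 1466 at an unadjusted p under 0.05) to 167 (without tumour 10) when 1 tumour was left out. Between families they were 1 as reported, 504 with DESeq2's test, 27 without the filter, 0 with the covariate (900 at an unadjusted p under 0.05), and 0 to 175 when 1 tumour was left out, the 0 without tumours 05, 06, 10, 11 or 13 in turn. Members called between tags were 0 of 8 as reported and 0 with each tumour left out. DESeq2's test called 1 of 7 (Igfbp1), beside 1207 of 11974 genes. Without the filter 3 of 10 members were called (Igf2, Igfbp1 and H19, edgeR adjusted p = 3.26e-05, 0.00686 and 0.0457), beside 1188 of 24682 genes. Igf2 was high in tumour 09 alone, at 1514 CPM against 0.669 in tumour 10 of the same tag. Between families DESeq2's test called 1 of 7 members (Igfbp1), beside 504 of 12161 genes. The SD of Igf2 ran from 1.71 to 3.72 when 1 tumour was left out, and that of Igf1r was 0.64 after variance stabilisation. Genes with an SD above 1 numbered 644 as reported, 420 after variance stabilisation and 2063 without the filter. Means of log2 CPM of all 10 members moved by less than their SD under each setting tried. Leaving out each tumour for the SD was chosen after seeing the data. No paired analysis was possible because only 1 group had matched columns. Depth limits Igf2 and Igf1r, with as few as 1 and 9 reads in a library.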
